A study of Mus musculus with 30 samples.

Results

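The 10 genes described here encode subunits of the Polycomb repressive complexes, and they were chosen by name: Ezh1, Ezh2, Eed, Suz12, Jarid2 and Mtf2 of Polycomb repressive complex 2 (PRC2), and Bmi1, Rnf2, Cbx2 and Cbx7 of Polycomb repressive complex 1 (PRC1). All 10 were found among the 22477 genes measured, and all were above 1 FPKM (fragments per kilobase of transcript and per unit of library size, a level corrected for transcript length) in each of the 15 conditions. The cells were mouse secondary induced pluripotent stem cells (iPSCs). They carry doxycycline-inducible Oct4, Sox2, Klf4 and c-Myc, a Nanog::GFP reporter that replaces 1 Nanog allele, and constitutive nuclear RFP, and all conditions share these alleles. The line had been kept on CF1 feeder fibroblasts in serum/LIF before the change to 2i/LIF, the medium with MEK and GSK3 inhibitors and leukaemia inhibitory factor that holds mouse cells in naive pluripotency. Polyadenylated RNA was sequenced at 0, 24, 36, 48, 60, 72 and 96 h after 2i/LIF was withdrawn in N2B27 medium. Cells taken at 0, 24, 48 and 96 h were also plated again in serum/LIF, either lacking doxycycline (–dox) or containing it (+dox), and collected 48 h later. For its colony assay the study plated such cells on CF1 feeders, and whether the sequenced cells also had feeders is not given in the sources used here. Below, "0 h –dox" stands for cells taken at 0 h and re-seeded without doxycycline, and the other re-seeded conditions are named likewise. Each condition had 2 replicates, which the deposited values combine into 1 level per gene. The differences between conditions therefore have no replicate check, and no test and no error can be given for them.

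Polycomb complexes keep developmental genes silent. PRC2 methylates lysine 27 of histone H3 through Ezh2 or its paralogue Ezh1, both of which need Eed and Suz12. PRC1 ubiquitinates histone H2A through Rnf2 (Ring1B) or Ring1, and canonical PRC1 is brought to methylated lysine 27 by a chromobox (Cbx) subunit. In mouse embryonic stem cells these marks lie on the promoters of many lineage genes, and the accessory subunits present change as cells leave pluripotency.

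In mm10 with the Gencode M21 annotation, the PRC2 genes lie at chr11:101191115-101226463 (Ezh1, minus strand), chr6:47530139-47595341 (Ezh2, minus), chr7:89954654-89980983 (Eed, minus), chr11:79993106-80034123 (Suz12, plus), chr13:44729474-44921643 (Jarid2, plus) and chr5:108065674-108109004 (Mtf2, plus). The PRC1 genes lie at chr2:18677018-18686629 (Bmi1, plus), chr1:151458004-151500955 (Rnf2, minus), chr11:119022962-119031270 (Cbx2, plus) and chr15:79915807-79971119 (Cbx7, minus). Each value covers all transcripts of a gene. Mtf2 overlaps Tmed5 on the opposite strand over 2639 bases, and Tmed5 reached 51.0 FPKM. Cbx7 overlaps Apobec3 on the opposite strand over 100 bases, and Apobec3 reached 120.0 FPKM. Whether the counting used strand is not given in the sources used here, so reads from these overlaps cannot be assigned with certainty.

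RefSeq promoter windows (build GRCm38.p6, 250 bases before to 50 after the start) were found for 9 of the 10 genes, all but Cbx2. These windows held between 17 (Eed) and 41 (Suz12) CG dinucleotides, with a median of 30 over the 9, against a median of 7 over the windows of 27025 genes. At least as many CG pairs as in Suz12 were present in 3.33% of all windows. The 250 bases upstream are printed for Suz12 and Mtf2, whose levels fell furthest over the time course, for Jarid2, which parted from Mtf2 at 24 h, and for Ezh1, which was highest late, with every CG in capitals.
Suz12, chr11:79992856-79993105, plus strand: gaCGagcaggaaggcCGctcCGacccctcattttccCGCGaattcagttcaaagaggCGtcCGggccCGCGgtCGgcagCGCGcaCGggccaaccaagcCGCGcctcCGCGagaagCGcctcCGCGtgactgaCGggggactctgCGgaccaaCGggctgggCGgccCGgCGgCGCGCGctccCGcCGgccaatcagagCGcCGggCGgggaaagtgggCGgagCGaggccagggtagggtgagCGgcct
Mtf2, chr5:108065424-108065673, plus strand: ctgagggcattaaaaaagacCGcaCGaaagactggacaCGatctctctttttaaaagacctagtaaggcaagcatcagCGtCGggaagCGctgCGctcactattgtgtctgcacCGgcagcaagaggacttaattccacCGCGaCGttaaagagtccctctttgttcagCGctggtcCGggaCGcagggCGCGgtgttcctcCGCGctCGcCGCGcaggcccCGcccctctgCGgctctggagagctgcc
Jarid2, chr13:44730524-44730773, plus strand: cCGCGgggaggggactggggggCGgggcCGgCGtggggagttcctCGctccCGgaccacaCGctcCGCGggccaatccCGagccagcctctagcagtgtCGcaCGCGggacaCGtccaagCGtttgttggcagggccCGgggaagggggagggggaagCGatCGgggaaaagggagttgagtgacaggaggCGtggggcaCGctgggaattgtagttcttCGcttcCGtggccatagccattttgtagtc
Ezh1, chr11:101226464-101226713, minus strand: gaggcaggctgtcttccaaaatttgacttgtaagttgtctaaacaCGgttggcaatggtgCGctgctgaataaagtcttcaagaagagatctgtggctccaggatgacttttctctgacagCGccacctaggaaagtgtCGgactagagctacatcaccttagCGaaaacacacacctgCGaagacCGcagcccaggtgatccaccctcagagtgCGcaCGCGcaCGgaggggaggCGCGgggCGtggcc
The upstream stretch of Suz12 held 37 CG pairs, with 23 each in Mtf2, Jarid2, Ezh2 and Cbx7, 21 in Bmi1, 20 in Rnf2, 14 in Ezh1 and 12 in Eed. The CG count did not separate the genes that fell from the others, since Eed, which fell, had the fewest and Ezh1 the next. The Jarid2 stretch lies inside the Gencode span of the gene, which starts further upstream, and the other 3 end at the Gencode start. On either strand, none of the 9 windows held the TATA-box sequence TATAAA, the octamer ATGCAAAT bound by Oct4-type factors or the E2F-type sequence GGCGGGAA, which were present in 14.2%, 1.77% and 2.27% of all windows.

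The conditions differed in markers of other cells. The 20 fibroblast markers summed to 1292 FPKM before withdrawal, dropped to 399.7 FPKM in the first 24 h, and later lay between 85.1 and 196.4 FPKM. Among re-seeded cells it lay between 65.5 and 181.1 FPKM in 6 conditions, with 157.6 FPKM for 96 h +dox and 497.4 FPKM for 96 h –dox. All 20 markers were above 0 in the cells before withdrawal, Twist2 and Lum were listed at 0 in 0 h –dox and Lum in 48 h +dox, and Col1a1, a collagen gene of fibroblasts, fell over the 96 h from 228.7 to 5.64 FPKM. The sum of the 12 naive pluripotency genes fell over the same time from 1434 to 53.2 FPKM, while Nanog went from 227.1 to 14.5 FPKM and Pou5f1 (Oct4) from 199.3 to 25.5 FPKM, and the 9 formative pluripotency genes were highest at 36 h, at 1254 FPKM. In bulk RNA, fewer cells of a type and less RNA per cell cannot be told apart. Feeder RNA may be part of the fibroblast sums of re-seeded cells, and also of the sum at 0 h, the baseline of the withdrawal ratios. The part of these shifts in the levels of the Polycomb genes was not tested. As deposited, the median log2 ratio over all genes lay between -0.05 and 0.05 in every comparison. Scaling all conditions to the same sum moved all log2 ratios of a comparison together, by up to 0.38 (72 h against 0 h).

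Suz12, the subunit that holds PRC2 together, fell furthest among the 3 catalytic-core genes during withdrawal. Here and below, the 7 levels of a gene follow the timepoints 0, 24, 36, 48, 60, 72 and 96 h. Suz12 had 89.1, 84.6, 51.3, 42.9, 34.7, 33.7 and 26.9 FPKM. Most of the loss fell between 24 and 36 h, and no later timepoint came back to the level of the earlier ones. At 96 h Suz12 was at 0.302 of its 0 h level (log2 -1.73). Eed, which binds methylated lysine 27, followed a different course. The levels were 108.4, 139.2, 90.0, 78.9, 59.2, 44.3 and 43.8 FPKM. It was thus highest at 24 h and lowest at 96 h, at 0.404 of the 0 h level (log2 -1.31). Ezh2, the main methyltransferase, varied least of all 10 genes. The levels were 89.2, 88.3, 79.7, 69.6, 65.1, 58.8 and 65.6 FPKM. The highest of these values was 1.52 times the lowest. Between the ends of the time course, the mean of the 3 core genes went from 95.6 to 45.5 FPKM and the Ezh2 to Suz12 ratio from 1.00 to 2.44.

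The fibroblast markers also fell from 0 h onward. At 0 h, where their sum was 1292 FPKM, Suz12 stood at 89.1 FPKM, Eed at 108.4 FPKM and Mtf2 at 87.0 FPKM. In 0 h –dox, where the sum was 107.9 FPKM, these genes stood at 61.0, 121.0 and 81.2 FPKM. Each was lower at 96 h, where the sum was 110.9 FPKM. These conditions also differ in medium, plating and time after withdrawal. The part of the fibroblast sum in the levels of these genes was not tested.

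Jarid2 and Mtf2, which help to bring PRC2 to CG-rich DNA in separate forms of the complex, parted at 24 h. Jarid2 had levels of 72.3, 132.1, 109.2, 95.1, 59.6, 64.1 and 42.6 FPKM. Its peak at 24 h was 1.83 times the 0 h level and 3.10 times the 96 h level. Mtf2 was measured at 87.0, 78.3, 54.6, 55.1, 45.2, 43.7 and 22.8 FPKM. It was highest at 0 h and lowest at 96 h, at 0.262 of the 0 h level (log2 -1.93), the largest fall of the 10 genes over this interval. The Jarid2 to Mtf2 ratio began at 0.831, reached 1.69 by 24 h and was 2.002 at 36 h. Jarid2 was the lower of the pair only at 0 h among the 15 conditions.

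Ezh1, the methyltransferase with weaker activity that is better known from non-dividing cells, was the only PRC2 gene of the 6 that was higher at 60 and 72 h than at all earlier timepoints. It had levels of 11.2, 9.35, 11.2, 8.77, 18.2, 19.7 and 12.2 FPKM. The step from 48 to 60 h was 2.08-fold, and 4.97% of genes rose at least 2-fold over that step. With 1 FPKM added to both values its log2 ratio was 0.98, just under 2-fold. The Ezh2 to Ezh1 ratio lay between 7.13 and 9.45 up to 48 h, was 3.57 and 2.98 at the next pair of timepoints, and ended at 5.36.

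Of the PRC1 genes, the ligase Rnf2 and the chromobox gene Cbx7 were abundant, and Bmi1 and Cbx2 were low. Rnf2 was measured at 57.7, 71.7, 41.4, 39.0, 36.6, 37.1 and 43.6 FPKM. Its values fell into a higher pair at 0 and 24 h and a lower set from 36 h. Its paralogue Ring1 was lower throughout, and the Rnf2 to Ring1 ratio was 8.70 at the start and 4.34 at the end. Bmi1 (Pcgf4), a partner of Rnf2 that defines one form of canonical PRC1, had levels of 9.96, 9.03, 8.64, 7.33, 5.87, 5.36 and 5.78 FPKM. Its lowest value was 0.538 of the 0 h value, inside the 2-fold limit used here. Cbx7, the main chromobox subunit of embryonic stem cells, was measured at 44.0, 63.8, 62.9, 47.1, 41.6, 50.1 and 22.4 FPKM. It stayed between 41.6 and 63.8 FPKM up to 72 h and then fell to 0.447 of the 72 h value, and 5.01% of genes fell at least 2-fold over that last step. Cbx2, a chromobox subunit that compacts chromatin and is known from differentiated cells, had levels of 8.99, 13.2, 16.9, 17.2, 12.0, 13.3 and 13.9 FPKM. It was lowest at 0 h and highest at 48 h, 1.92 times the 0 h level.

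**Figure D1:**
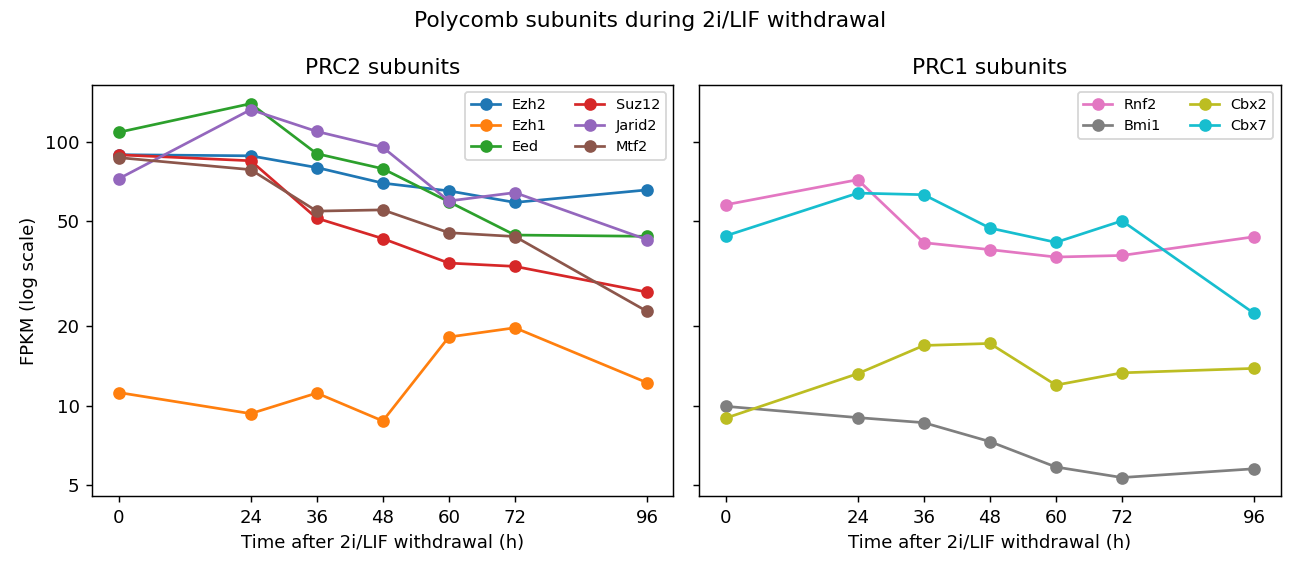
Level of each Polycomb subunit gene (FPKM, log axis) against hours after 2i/LIF withdrawal, with PRC2 genes on the left and PRC1 genes on the right. Each point is the combined value of 2 replicates. Suz12 goes from 89.1 to 26.9 FPKM and Mtf2 from 87.0 to 22.8 FPKM, while Ezh2 stays between 58.8 and 89.2 FPKM.

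A gene was counted as changed where its levels differed at least 2-fold and the higher reached 1 FPKM. By that rule none of the 10 genes had changed at 24 h or at 36 h against 0 h, when 23.0% and 28.1% of all genes had. At 48 h only Suz12 was lower (17.0% of genes were lower), and at 60 h again only Suz12 (16.1%). At 72 h Eed and Suz12 were lower (15.9%), with Mtf2 just outside at 0.503 of its 0 h level. With all conditions scaled to the same sum, the log2 ratio of Eed at 72 h was -0.91, no longer 2-fold. At 96 h Eed, Suz12 and Mtf2 were lower and none of the 10 was higher, against 16.4% of genes lower and 16.8% higher, and Cbx7 was just outside at 0.509. The median log2 ratio of the 10 genes at 96 h was -0.77, and that of all genes -0.02. From the highest to the lowest of the 7 timepoints, 6 of the 10 genes differed at least 2-fold, as did 60.7% of all genes, 50.6% of genes reaching 5 FPKM and 43.8% of genes reaching 20 FPKM.

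The make-up of the Cbx and Pcgf families, whose members take each other's place in PRC1, shifted with the conditions. Cbx7 held 64.0% of the summed FPKM of Cbx2, Cbx6, Cbx7 and Cbx8 before withdrawal, 66.1% after 24 h and 40.6% after 96 h. Cbx2 held 13.1% at 0 h and 25.1% at 96 h, and Cbx6 19.9% and 32.6%. The Cbx7 to Cbx2 ratio began at 4.89, was 2.73 by 48 h and ended at 1.62. In 0 h –dox and 24 h –dox this ratio was 12.5 and 12.6, with Cbx7 at 74.0% and 78.4% of this sum. Bmi1 held a small share of the Pcgf family throughout, 8.71% at the start, 4.69% at the last timepoint and 2.17% in 48 h –dox. Pcgf6, which belongs to a variant PRC1 without Cbx subunits, began at 29.6%, peaked at 46.2% by 36 h and ended at 25.0%. Pcgf5, of another variant PRC1, went from 5.63% to 15.7% over the time course and held 41.6% in 96 h –dox. The summed Pcgf level varied less than these shares, between 103.0 and 141.2 FPKM over the 15 conditions.

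**Figure D2:**
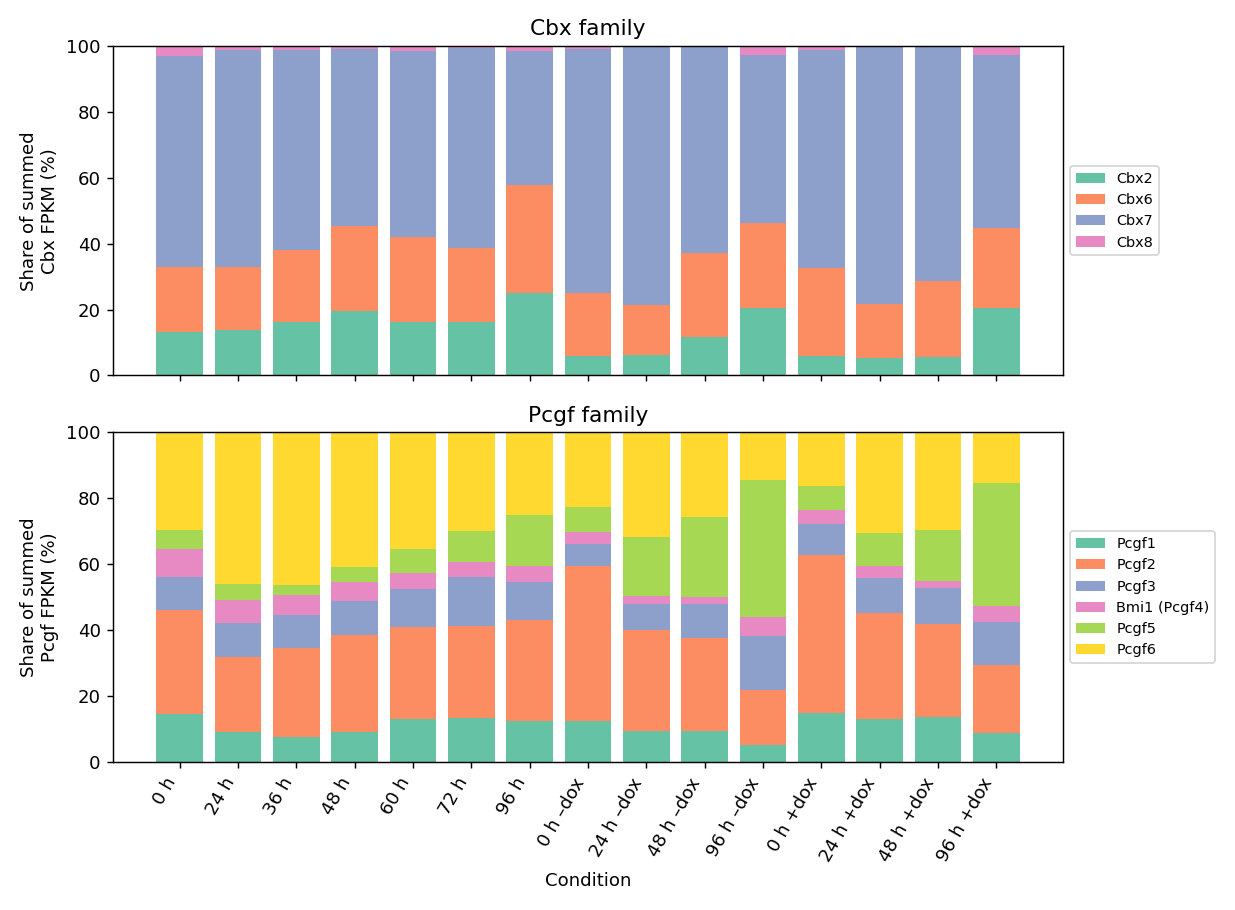
Share of the summed FPKM of 4 Cbx genes (top) and the 6 Pcgf genes (bottom) in each of the 15 conditions, as stacked bars that add to 100%. Cbx7 is the largest Cbx share at 0 h (64.0%) and Pcgf5 the largest Pcgf share in 96 h –dox (41.6%).

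The other Polycomb genes were taken from lists of 9 further PRC2 genes and 19 further PRC1 genes. At 96 h against 0 h, when 16.8% of all genes were higher and 16.4% lower, 2 of 9 PRC2 genes were higher and none lower. These were Phf19, an Mtf2 paralogue, at 0.778 and 3.19 FPKM (0 and 96 h), and Ezhip, an inhibitor of PRC2, at 0.416 and 1.503 FPKM, both low. Of the 19 PRC1 genes 3 were higher and 3 lower. Pcgf5 rose from 6.44 to 19.3 FPKM, the Polyhomeotic gene Phc2 from 11.3 to 54.2 FPKM, and Yaf2, which replaces Rybp in variant PRC1, from 6.79 to 19.0 FPKM. Rybp fell from 46.6 to 22.2 FPKM, and Cbx8 and Scml2 also fell, from levels at or under 5.51 FPKM. The median log2 ratio was 0.26 for the 9 PRC2 genes and 0.05 for the 19 PRC1 genes, beside -0.77 for the 10 subunits above. At 24 h against 0 h, 1 of 8 PRC2 genes assessed was higher, and 2 of 19 PRC1 genes were higher and 1 lower. Of all genes 8.64% were higher and 14.3% lower. Phc1, the Polyhomeotic gene of pluripotent cells, stood at 213.9 FPKM at 24 h against 79.9 at 0 h, and L3mbtl2, of the Pcgf6 complex, at 53.9 FPKM against 19.7. Phf19 rose from 0.778 to 3.06 FPKM and Scml2 fell from 5.51 to 2.59 FPKM.

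The –dox cells of each start were compared with the cells at the time of re-seeding. They differ from these by the medium, by dissociation and a new plating, and by 48 h more in culture, which cannot be told apart. In 0 h –dox Cbx7 was at 91.9 FPKM against 44.0 in the cells before re-seeding, 2.09-fold higher, while 12.0% of genes were higher. Bmi1 was at 5.08 FPKM against 9.96, just outside the limit at 0.510. In 24 h –dox Suz12 was at 38.9 FPKM against 84.6 (0.460), and Bmi1 at 3.47 against 9.03 (0.385), while 10.6% of genes were lower. For Suz12 the log2 ratio was -0.97 with all conditions scaled to the same sum, just short of 2-fold. In 48 h –dox Bmi1 was the only subunit gene of the 10 past 2-fold, at 2.53 FPKM against 7.33 (0.345), while 11.5% of genes were lower. In 96 h –dox none of the 10 genes was past 2-fold, while 23.6% of genes were. The fibroblast sum fell beside Bmi1 from 1292 to 107.9 FPKM for cells from 0 h and from 399.7 to 83.5 FPKM for cells from 24 h. For cells from 48 h, where Bmi1 was also lower, that sum was 191.9 FPKM before and 181.1 FPKM after re-seeding. The part of the fibroblast sum in the Bmi1 levels was not tested.

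The re-seeded –dox cells were then compared by the time spent without 2i/LIF. Against 0 h –dox none of the 10 genes had changed in 24 h –dox (20.1% of all genes had). In 48 h –dox Mtf2 was lower at 33.8 FPKM against 81.2 (0.416), and Bmi1 at 2.53 against 5.08 (0.498), with 17.4% of genes lower. Adding 0.1 FPKM to both values brought the log2 ratio of Bmi1 to -0.98, just short of 2-fold. In 96 h –dox 6 of the 10 genes were lower and none was higher, while 21.7% of all genes were lower and 21.5% higher. Mtf2 fell to 13.98 FPKM from 81.2 (0.172), Cbx7 to 26.3 from 91.9 (0.286), Eed to 35.8 from 121.0 (0.296), Jarid2 to 34.8 from 111.5 (0.312), Suz12 to 23.7 from 61.0 (0.388) and Ezh2 to 42.3 from 89.6 (0.472). These are 5 of the 6 PRC2 genes and the main chromobox gene. Ezh1 was at 10.7 FPKM against 18.9 (0.565), Rnf2 at 53.4 against 59.8, Bmi1 at 6.77 against 5.08 and Cbx2 at 10.5 against 7.36. The median log2 ratio over the 10 genes was -1.22, and that of all genes -0.02. In the same comparison the fibroblast sum was 497.4 against 107.9 FPKM, and 20 proliferation genes summed to 1454 against 2655 FPKM. In 96 h +dox, where the fibroblast sum was 157.6 FPKM, Mtf2 stood at 17.1 FPKM, Cbx7 at 23.3 FPKM and Jarid2 at 34.9 FPKM. Suz12 stood at 25.8 FPKM and Eed at 43.7 FPKM there. Ezh2, at 54.9 FPKM, was less than 2-fold below its level in 0 h –dox. The part of the fibroblast and proliferation sums in these levels was not tested.

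Among the other Polycomb genes, this comparison gave 2 higher and 3 lower of 9 PRC2 genes, and 5 higher and 5 lower of 19 PRC1 genes. Of all genes 21.5% were higher and 21.7% lower. Phc1 went from 348.9 to 25.3 FPKM while Phc2 went from 12.4 to 54.2 FPKM. Rbbp7, a histone-binding subunit of PRC2 that other chromatin complexes share, rose from 181.6 to 475.2 FPKM, and its paralogue Rbbp4 fell from 62.2 to 30.7 FPKM. Lcor, whose long product joins some PRC2, went from 1.12 to 5.41 FPKM, and Phf19 from 9.42 to 3.50 FPKM. Pcgf2 (Mel18), the closest relative of Bmi1, fell from 65.2 to 19.8 FPKM, and Pcgf5 rose from 10.5 to 49.7 FPKM. Bcor, of the Pcgf1 complex, rose from 11.2 to 49.3 FPKM and Pcgf1 itself fell from 17.4 to 6.30 FPKM. Yaf2 and Pcgf3 were also higher, and Ezhip, L3mbtl2 and Scml2 lower.

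**Figure D3:**
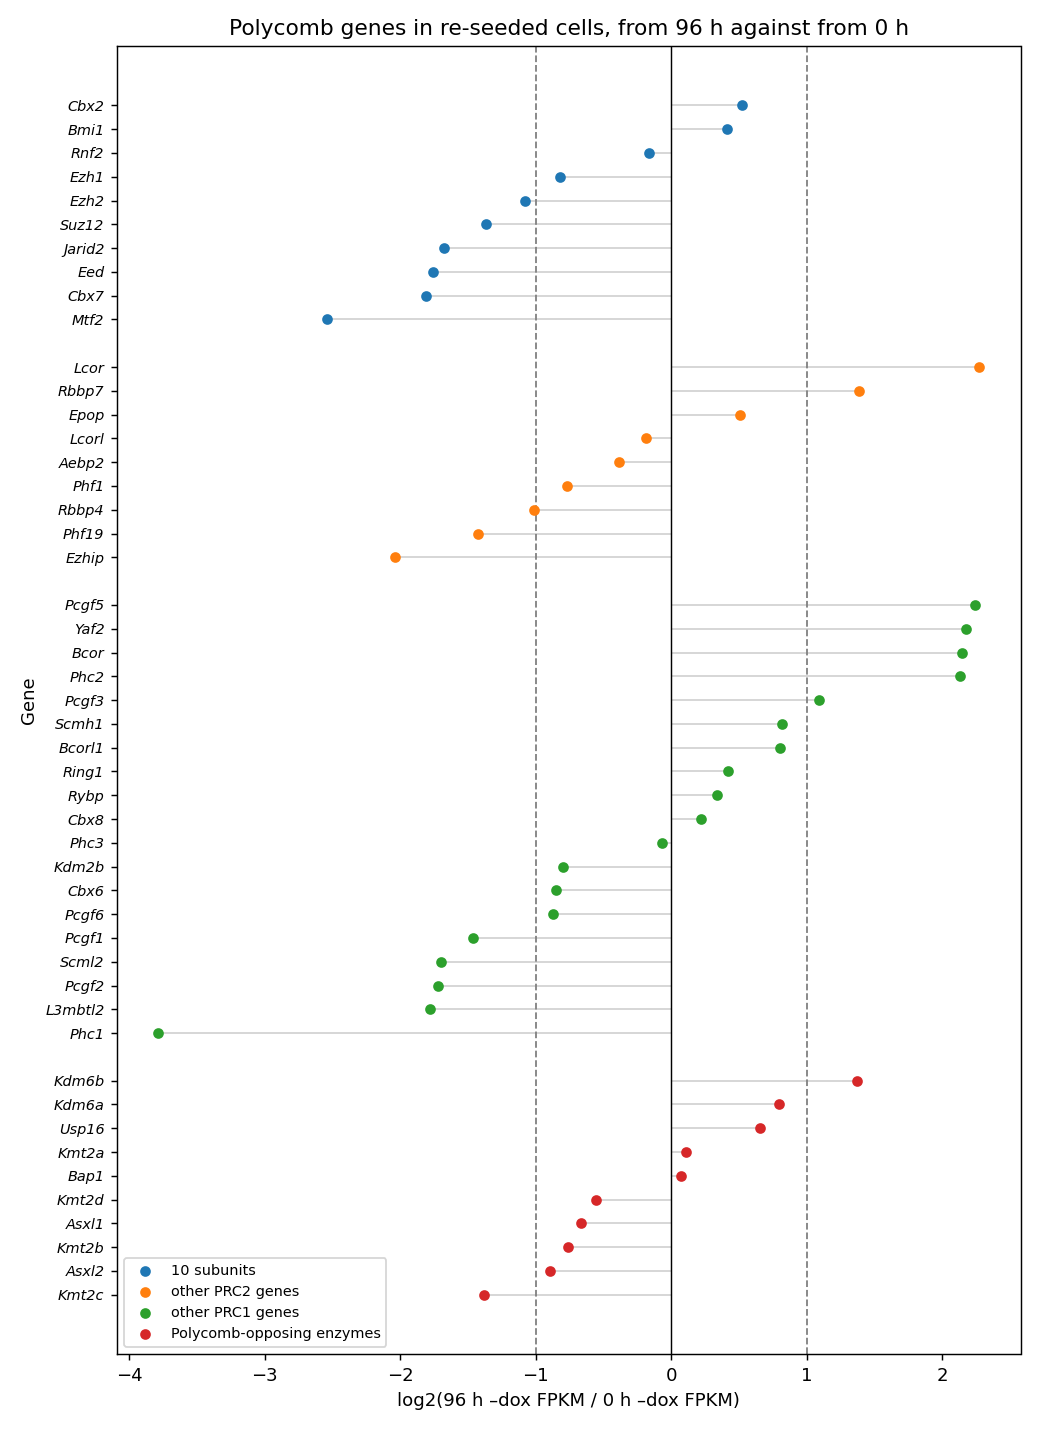
Log2 ratio of the FPKM in 96 h –dox to that in 0 h –dox for each Polycomb gene, grouped by list, with dashed lines at 2-fold. Among the 10 subunits, 6 lie beyond the lower line (Mtf2 at -2.54) and none beyond the upper one, while the other lists have genes beyond both.

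Doxycycline, which switches on the 4 reprogramming factors, was compared with its absence at each of the 4 start times. None of the 10 genes passed 2-fold at any start, while 9.23% of all genes did for cells from 0 h, 6.27% from 24 h, 13.0% from 48 h and 17.7% from 96 h. At 1.5-fold 5 of the 40 values passed, 1 from 24 h and 4 from 48 h, while 24.7%, 17.3%, 27.1% and 34.6% of all genes did from the 4 starts in turn. The median log2 ratio over the 10 genes was -0.07 from 0 h, 0.00 from 24 h, 0.37 from 48 h and 0.06 from 96 h, and that of all genes lay between -0.02 and 0.05. For cells from 48 h, 8 of the 10 genes had a higher level in +dox than in –dox, none of them 2-fold. The median log2 ratio of all genes from 48 h was -0.02. Mtf2 was at 54.9 against 33.8 FPKM (1.63), Jarid2 at 94.5 against 60.4 (1.56), Eed at 96.8 against 63.8 (1.52) and Cbx7 at 70.8 against 48.1 (1.47). Suz12, Rnf2, Ezh1 and Ezh2 had ratios from 1.25 to 1.303. Cbx2 was at 5.47 FPKM against 8.91 (0.613), and Bmi1 at 2.34 against 2.53.

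The 48 h +dox levels of Mtf2, Jarid2, Cbx7, Eed, Suz12, Ezh2 and Ezh1 lay between those of 48 h –dox and 0 h –dox. Rnf2, at 60.2 FPKM, lay above both, though only just above its 59.8 FPKM in 0 h –dox. Cbx2 and Bmi1 lay below both. Before re-seeding, at 48 h, Mtf2 had stood at 55.1 FPKM and Jarid2 at 95.1 FPKM, near their 48 h +dox levels. Eed had stood at 78.9 FPKM and Cbx7 at 47.1 FPKM, below theirs. For cells from 96 h Mtf2, Jarid2, Eed and Cbx7 differed less between the media. Mtf2 was at 17.1 FPKM in +dox against 13.98 in –dox, Jarid2 at 34.9 against 34.8, Eed at 43.7 against 35.8, and Cbx7 at 23.3 against 26.3. The difference between the start times could not be tested with combined replicates. Ezh1 was higher in +dox at all 4 starts, at 26.6 against 18.9 FPKM from 0 h, 18.2 against 11.6 from 24 h, 12.7 against 9.99 from 48 h and 15.2 against 10.7 from 96 h. Cbx2 was lower in +dox at all 4 starts, with ratios between 0.613 and 0.899. Each of these ratios was under 2-fold, and their directions were kept with all conditions scaled to the same sum.

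**Figure D4:**
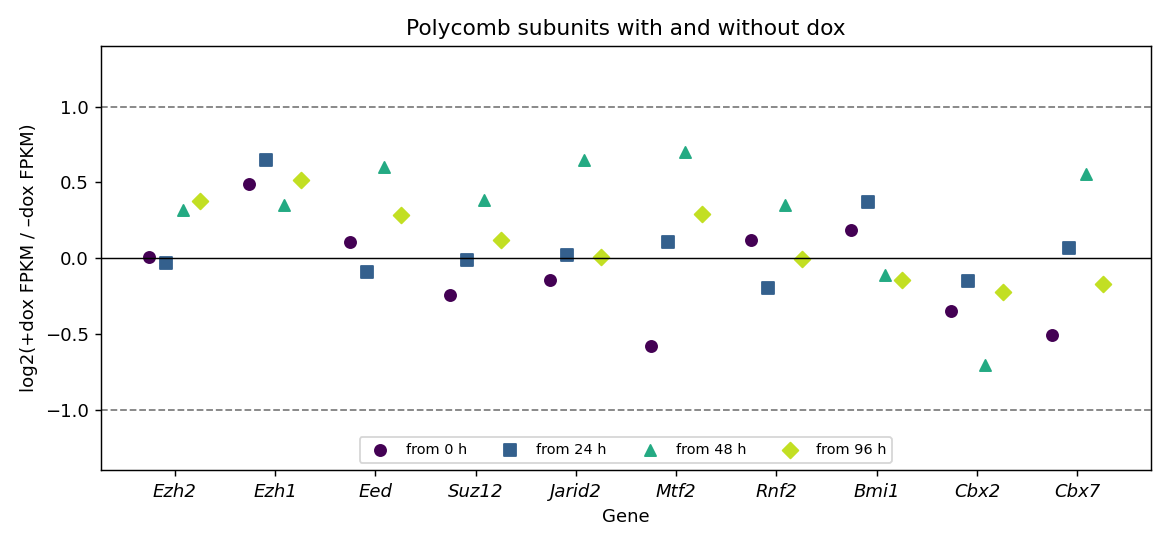
Log2 ratio of the +dox to the –dox level of each subunit gene for cells from 0, 24, 48 and 96 h (marker shapes), with dashed lines at 2-fold. All 40 values lie inside the lines. Ezh1 is above 0 and Cbx2 below 0 at each start.

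With doxycycline 9.23% of all genes passed 2-fold for cells from 0 h, 6.27% from 24 h, 13.0% from 48 h and 17.7% from 96 h. Of the other Polycomb genes assessed from 48 h, 1 of 9 PRC2 and 1 of 18 PRC1 genes were higher. Another 2 of these 18 were lower. From 24 h 1 of 17 PRC1 genes was lower, and from 96 h 1 of 8 PRC2 and 1 of 18 PRC1 genes. For cells from 0 h none of those listed passed 2-fold. For cells from 24 h Pcgf5 was lower, with 12.6 FPKM in +dox against 25.3 in –dox. For cells from 48 h Phf19 (5.39 against 1.35 FPKM) and Phc1 (265.0 against 122.6 FPKM) were higher, and Bcorl1 and Scml2 were lower, both at or under 3.25 FPKM. For cells from 96 h Bcor was lower at 9.98 against 49.3 FPKM, as was Lcor (2.07 against 5.41 FPKM).

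Over all 15 conditions the order of the levels set the subunits apart. Eed was the most abundant of the 10 genes at 0 h and 24 h, Jarid2 at 36, 48 and 72 h, and Ezh2 at 60 and 96 h. Among re-seeded cells it was Eed from 0 and 48 h and Cbx7 from 24 h, in –dox and +dox alike. From 96 h it was Rnf2 in –dox and Ezh2 in +dox. Bmi1 had the lowest maximum, 9.96 FPKM. Suz12 and Mtf2 were highest at 0 h, Eed, Jarid2 and Rnf2 at 24 h, Cbx2 at 48 h, Ezh1 and Ezh2 in 0 h +dox, Cbx7 in 24 h +dox and Bmi1 at 0 h. Ezh2, Eed, Suz12, Jarid2 and Mtf2 were all lowest in 96 h –dox. Ezh2 was nearly level in 0 h +dox (90.0 FPKM), 0 h –dox (89.6 FPKM) and at 0 h (89.2 FPKM). For Rnf2, 13 of the 14 steps between neighbours in its order were under 1.1-fold. So were 11 for Ezh1, 10 for Ezh2 and Cbx7, 9 for Suz12 and Jarid2, and 8 for Eed, Mtf2, Bmi1 and Cbx2. The place of most neighbours thus cannot be told apart. With all conditions scaled to the same sum, 6 of the 10 genes kept the same highest condition.

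**Figure D5:**
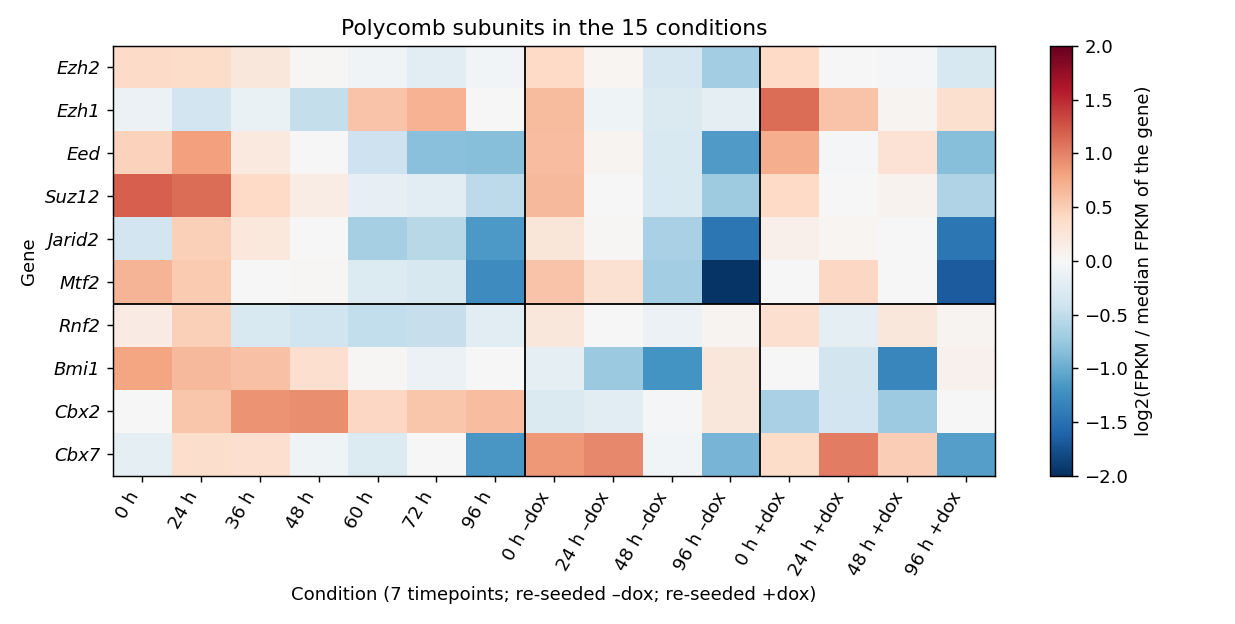
Log2 ratio of each level to the median of that gene over the 15 conditions (red above, blue below), with vertical lines between the 7 timepoints, the 4 –dox and the 4 +dox conditions and a horizontal line between PRC2 and PRC1. The PRC2 genes other than Ezh1 are blue at 96 h and in both conditions from 96 h, apart from Ezh2 at 96 h, which is near its median of 68.2 FPKM.

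The genes most like each subunit were found by Pearson's r of log2(FPKM + 1) over the 15 conditions, among 9068 genes. These points share cells and starting cultures and are a description. Mtf2 was nearest to Fbxo15 (r = 0.97), Fgf4 and Tdrd12, the first 2 being genes of pluripotent cells. Jarid2 was nearest to Dppa2 (r = 0.96), another such gene, Gm13251 and Atf1. Ezh2 was nearest to Tnni3 (r = 0.96), Chek1, a kinase of the DNA damage checkpoint, and Cenpm, of the centromere. Eed was nearest to Pigl (r = 0.96), Wdr82 and Laptm5, and Suz12 to Kdm3a (r = 0.95), Morc3 and Gm53. Cbx7 was nearest to Tcf15 (r = 0.92), Plekhm1 and Kdm4c, and Cbx2 to Slc9a3r1 (r = 0.92), Prr12 and Fhl3. Bmi1 was nearest to Scd2 (r = 0.91), Ugdh and Fscn1. The nearest genes were less alike for Ezh1, namely Htt (r = 0.88), Clasrp and Tsc1, and for Rnf2, namely Pdgfa (r = 0.88), Arcn1 and Stat3. Among the subunits themselves, 10 of the 45 pairs had r above 0.8 and 12 had r below 0, with Mtf2 and Jarid2 (0.90), Eed and Ezh2 (0.89) and Suz12 and Eed (0.89) the most alike and Cbx2 and Rnf2 (-0.57) the least. None of the 30 nearest genes was named again when the 7 timepoints alone were used.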

How the data were processed

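RNA levels of mouse secondary iPSCs were analysed in 15 conditions with 2 replicates each, 30 samples in all. The authors aligned polyadenylated RNA-seq reads to mm10 with TopHat2 2.0.14 and used Cuffquant and Cuffdiff (Cufflinks 2.2.1) with the Gencode vM4 annotation, keeping transcripts of at least 200 bases from 6 biotypes. The deposited table holds FPKM values, 1 per gene and condition, with the replicates combined. How libraries were scaled is not given in the sources used here, and read depth is unknown, so no counting interval was computed. Another 5 columns hold the authors' own calls and were not used.

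Ratios of the deposited FPKM were taken for 22 pairs of conditions with no pseudocount. A gene was assessed where the higher value reached 1 FPKM and counted as changed at 2-fold or more, with no replicate test. Percentages refer to all genes assessed. The calls were tested on simulated data with known ratios and no noise. That checks the code and says nothing on the spread between replicates. Python 3.11.15, numpy 2.4.6 and pandas 2.3.3 were used.

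The 10 genes and all lists were chosen with earlier results of these data known. Named were all 10 genes, listed Polycomb genes past the limit in the comparison described (low ones in part as a group), at most 3 rising and 3 falling developmental targets that reached 10 FPKM, the 3 genes nearest each subunit by Pearson's r among genes reaching 10 FPKM and the subunits, and Ring1, 4 Cbx and 6 Pcgf genes, Nanog, Pou5f1 and Col1a1 as references. A further PRC1 gene is not reported here and was left out of the lists and shares. Epop and Ezhip were matched through RefSeq synonyms. Promoter sequences were taken from RefSeq, with 1 window per gene at the most upstream start.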

Additional observations from a re-analysis of the deposited data

How the results depend on the processing

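No paired analysis was possible because the deposited values combine the replicates of each condition, and for the same reason no replicate could be left out. Of the 8 alternatives, only scaling by the median ratio over genes and scaling to the same sum could turn a direction. The 21 subunit ratios past 2-fold kept theirs under both. They stayed past the limit in 148 of 168 recalculations, which include a 1.5-fold limit and no minimum, where no call could be lost. Of the 20 losses, 15 came from a 3-fold limit. Scaling to the same sum kept 19 of the 21 past the limit, as did adding 1 FPKM to both values.

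With a 1.5-fold limit, 10 of the 10 genes varied over the timepoints (6 at 2-fold), 6 were lower at 96 h than at 0 h (3 at 2-fold), 5 of 40 values differed with doxycycline (0 at 2-fold), 15 values differed from the cells before re-seeding (4 at 2-fold), and 15 other PRC2 and PRC1 genes differed at 96 h (8 at 2-fold). At that limit 85.8% of all genes varied over the timepoints, 25.4% were lower at 96 h, 44.1% of values differed after re-seeding and 50.6% of genes differed at 96 h. With a 3-fold limit, 0 values differed from the cells before re-seeding, 4 other Polycomb genes differed at 96 h, and 10 (15 at 2-fold) differed between 96 h –dox and 0 h –dox, where 12.9%, 21.4% and 27.7% of all genes passed. A minimum of 5 FPKM left 5 other Polycomb genes at 96 h, since fewer genes could pass. Scaling to the same sum kept the highest condition of 6 of the 10 genes. Of the 30 nearest genes, 8 were named again with Spearman's rho, 0 with the 7 timepoints alone and 23 with genes reaching 1 FPKM. The number of combined values, 1 per condition, limits all of these comparisons.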

Other observations

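Enzymes that oppose Polycomb and genes known as Polycomb targets in embryonic stem cells were examined in the same conditions. Of 10 opposing enzymes, Kmt2a, a methyltransferase of the activating mark on lysine 4, was the only one past 2-fold at 96 h against 0 h, at 8.71 against 4.24 FPKM. In that comparison 33.3% of all genes were past 2-fold. Asxl1, a partner of the H2A deubiquitinase Bap1, was at 40.3 FPKM at 24 h against 16.1 FPKM at 0 h. In 96 h –dox, Kdm6b, a demethylase of lysine 27, was at 22.2 FPKM against 8.62 FPKM in 0 h –dox, and Kmt2c was at 4.62 against 12.0 FPKM. None of the 10 enzymes passed 2-fold with doxycycline in cells from 48 or 96 h, while 13.0% and 17.7% of all genes did.

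Of 32 developmental targets 20 reached 1 FPKM in the comparison of 96 h with 0 h. Of these, 7 were higher and 9 lower, beside 16.8% and 16.4% of all genes. All of those counted but Sox1, Tbx3 and Cdkn2a stayed under 10 FPKM, and some lay near the limit of 1 FPKM. Sox1, a gene of the early neural lineage, stood at 13.3 FPKM at 96 h and 1.02 FPKM at 0 h. Tbx3, which naive cells express, fell from 51.5 to 1.81 FPKM, and Cdkn2a, a cell-cycle inhibitor that Polycomb holds down in fibroblasts, from 54.5 to 11.3 FPKM. In 96 h –dox against 0 h –dox, 12 targets were higher and 3 lower of 20, beside 21.5% of all genes higher and 21.7% lower. Irx3 was at 20.96 against 0.184 FPKM, Msx2 at 24.9 against 0.423 FPKM and Hand1, of trophoblast and heart, at 38.2 against 3.98 FPKM. Tbx3 was lower, at 4.99 against 58.1 FPKM, and the others counted stayed under 10 FPKM. With doxycycline, cells from 96 h had 10 targets lower and 1 higher of 18 (all genes 11.1% and 6.67%). All of those counted but Hand1, Irx3 and Cdkn2a stayed under 10 FPKM. With doxycycline Hand1 was at 1.76 FPKM, Irx3 at 3.10 FPKM and Cdkn2a at 12.7 FPKM against 28.0 FPKM. The fibroblast sum was 157.6 FPKM in those cells and 497.4 FPKM without doxycycline, and its part in these values was not tested.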
